A study of Mus musculus with 68 samples.

Results

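The strain by butadiene interaction asked, for each lung mRNA, whether 1,3-butadiene (BD) changed its level by a different ratio in CAST/EiJ than in C57BL/6J mice. BD is an inhaled carcinogen, C57BL/6J is a common laboratory strain, and CAST/EiJ is a wild-derived inbred strain. The BD response of a strain was the log2 ratio of BD to clean air, and the interaction was the CAST/EiJ response minus the C57BL/6J response, so that a positive value is a higher response in CAST/EiJ. It was computed from 23 of the 68 lung samples of the series: 5 CAST/EiJ libraries under BD, 7 CAST/EiJ in clean air, 6 C57BL/6J under BD and 5 C57BL/6J in clean air. All mice were wild-type males, and those under BD breathed it for 6 hours on each weekday over 2 weeks, at a concentration not given in the sources used here. RNA was polyA-selected from whole lung, where fewer cells of a type and less RNA per cell cannot be told apart, and the labels do not say whether each library is 1 animal.

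BD itself is not the reactive agent. Cytochrome P450 enzymes, chiefly CYP2E1, convert it to epoxides that bind DNA, and epoxide hydrolase and glutathione S-transferases clear these. In mouse lung much of this metabolism takes place in club cells, the secretory cells of the airway lining. The transcription factor NRF2 raises glutathione and conjugating enzymes when electrophiles such as epoxides accumulate. An interaction can arise in several ways that its value alone does not separate. From equal levels a gene may respond by unequal amounts, in 1 strain alone or in opposite directions. Where the levels differ, 1 strain may stand in clean air where the other stands only under BD.

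Total counts ran from 10597990 to 50001571 per library, and the lung markers Sftpc (6691 to 13388 CPM, counts per 1000000 counts of the scaled library), Scgb1a1 (3042 to 8499 CPM) and Ager (1341 to 2961 CPM) were present in all 23. A 24th RNA-seq library, labelled CAST/EiJ under BD with title number 8, was left out. Over 808 genes that differed more than 4-fold between strains in clean air, on a scale with 0 at the mean of clean-air C57BL/6J and 1 at that of clean-air CAST/EiJ, it stood at 0.0629, whereas the other libraries labelled CAST/EiJ stood between 0.944 and 1.05 and those labelled C57BL/6J between -0.0372 and 0.0788. Title numbers over 100 fell on 5 of the 7 clean-air CAST/EiJ libraries, on 1 of the 5 clean-air C57BL/6J libraries and on no BD library. The labels do not say what the numbers stand for, so the interaction was also fitted without this series of numbers (17 libraries: 5, 2, 6 and 4) and with it as a covariate.

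Of 17377 genes tested with edgeR's quasi-likelihood test, 1641 (9.44%) were called for the interaction, which here means a Benjamini-Hochberg adjusted p under 0.05. The CAST/EiJ response was higher in 977 of them (5.62% of the tested genes) and lower in 664 (3.82%), and 244 differed at least 2-fold. In CAST/EiJ, BD changed 1255 genes (7.22%), with 670 up (3.86%) and 585 down (3.37%). In C57BL/6J it changed 1857 genes (10.7%), with 730 up (4.2%) and 1127 down (6.49%). The strains themselves differed in 42.7% of genes under BD and in 60.4% in clean air. In the 17 libraries numbered 100 or less 320 of 17778 genes (1.8%) were called, 121 higher (0.681%) and 199 lower (1.12%), and 173 genes were called with 1 sign in both fits (0.996% of the tested genes, 10.5% of the 1641 and 54.1% of the 320), with 68 of them lower (0.391%) and the others higher (0.604%). The 2 fits share 17 libraries, so the second is no independent repeat. In the 17 libraries BD changed 627 genes in CAST/EiJ (3.53%; 0.501% up and 3.03% down) and 3016 in C57BL/6J (17%; 7.72% up and 9.24% down). With the number series as a covariate 84 genes were called (0.483%; 0.247% higher and 0.236% lower), and 50 (0.288%) were called in all 3 fits.

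The direction of the 1641 was the same in the 17 libraries for each of them, with a median size of 0.59 (log2) in 23 libraries and 0.49 in 17, and 146 were less than 50% as large. Leaving out single libraries moved the number of calls between 372 and 3392. Without clean-air C57BL/6J number 4 it was 372 and without the library titled RNA_106 of the same group it was 3392, as the plot of calls by library shows. The count called in both fits, 173 with all libraries, was 2 without clean-air CAST/EiJ number 2 and 141 without number 1; each of these leaves a lone clean-air CAST/EiJ library in the smaller fit, assumed to vary like the other groups. It was 12 and 19 without clean-air C57BL/6J numbers 4 and 5, 39 without number 17 of C57BL/6J under BD, and 429 without number 12 of CAST/EiJ under BD.

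**Figure D1:**
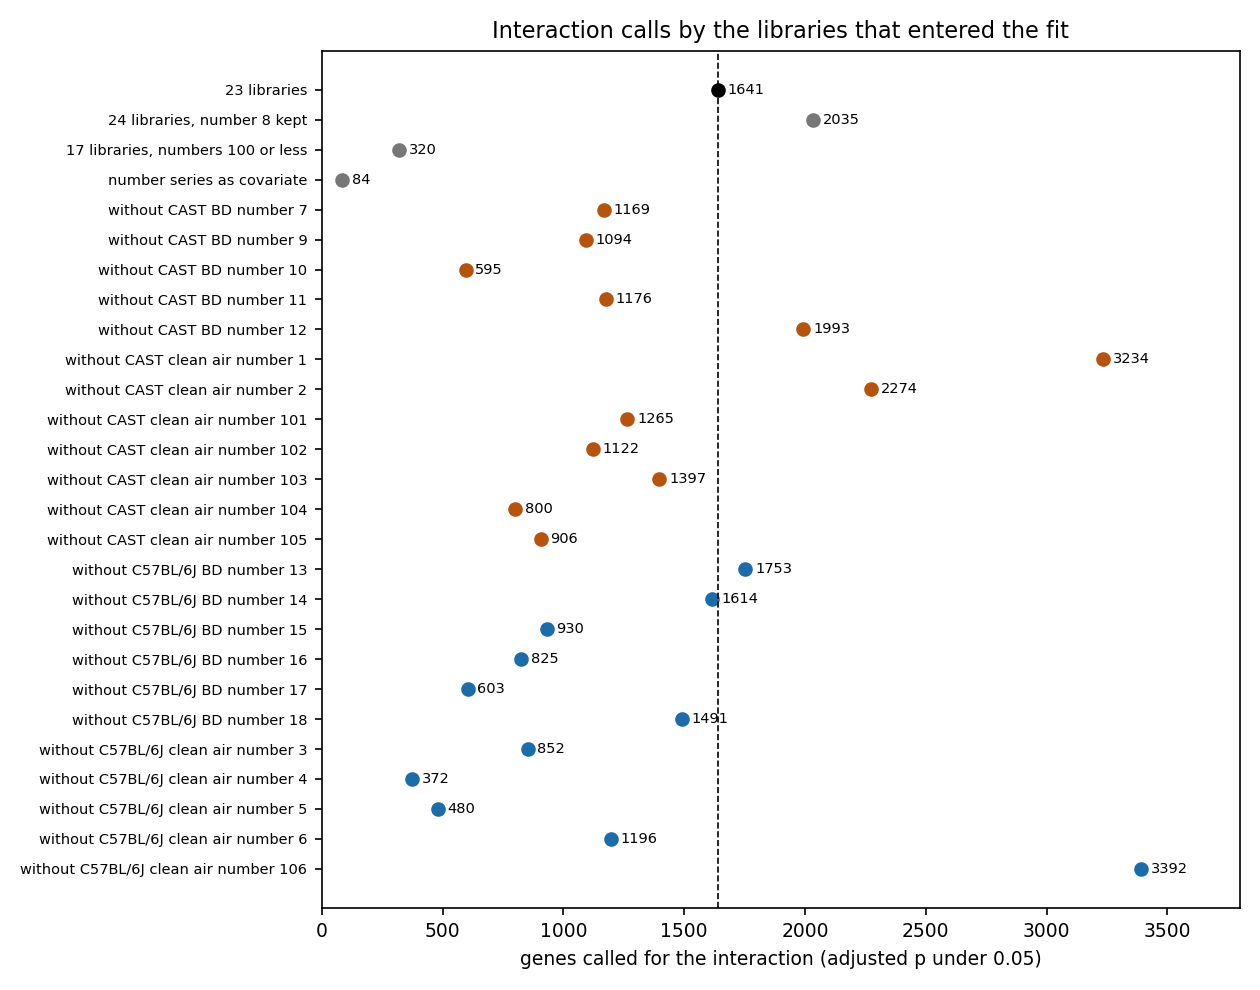
Number of genes called for the interaction (x axis, adjusted p under 0.05) in each fit (rows). The dashed line marks the 1641 of the 23 libraries; the fits without single libraries, coloured by strain, range from 372 to 3392, and those that take the number series out give 320 and 84.

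The calls were sorted by which strain responded and where it started. In 306 genes the C57BL/6J response was called, the CAST/EiJ response was not, the strains differed in clean air (called) in the direction of that response, and the clean-air CAST/EiJ level was already at the C57BL/6J level under BD, with a 95% interval inside 1.5-fold. In 423 others the response was called in C57BL/6J alone. This split depends on the margin, with 70 and 659 genes at 1.2-fold and 503 and 226 at 2-fold. The mirror of the first kind was a response called in CAST/EiJ alone against a called clean-air difference. The CAST/EiJ level under BD then had a 95% interval inside 1.5-fold of the clean-air C57BL/6J level. This class, called reaching the C57BL/6J level below, held 176 genes, and 198 others were called in CAST/EiJ alone. The 176 had a median clean-air difference of -0.504 and a median CAST/EiJ response of 0.372 (log2, in that response's direction). Both were smaller in size than the margin, so at the median the strains lay within 1.5-fold in clean air already. Another 17 genes responded in opposite directions, 4 in 1 direction with unequal size, and in 517 neither response was called by itself. These classes are a description of the called genes and carry no test of their own.

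**Figure D2:**
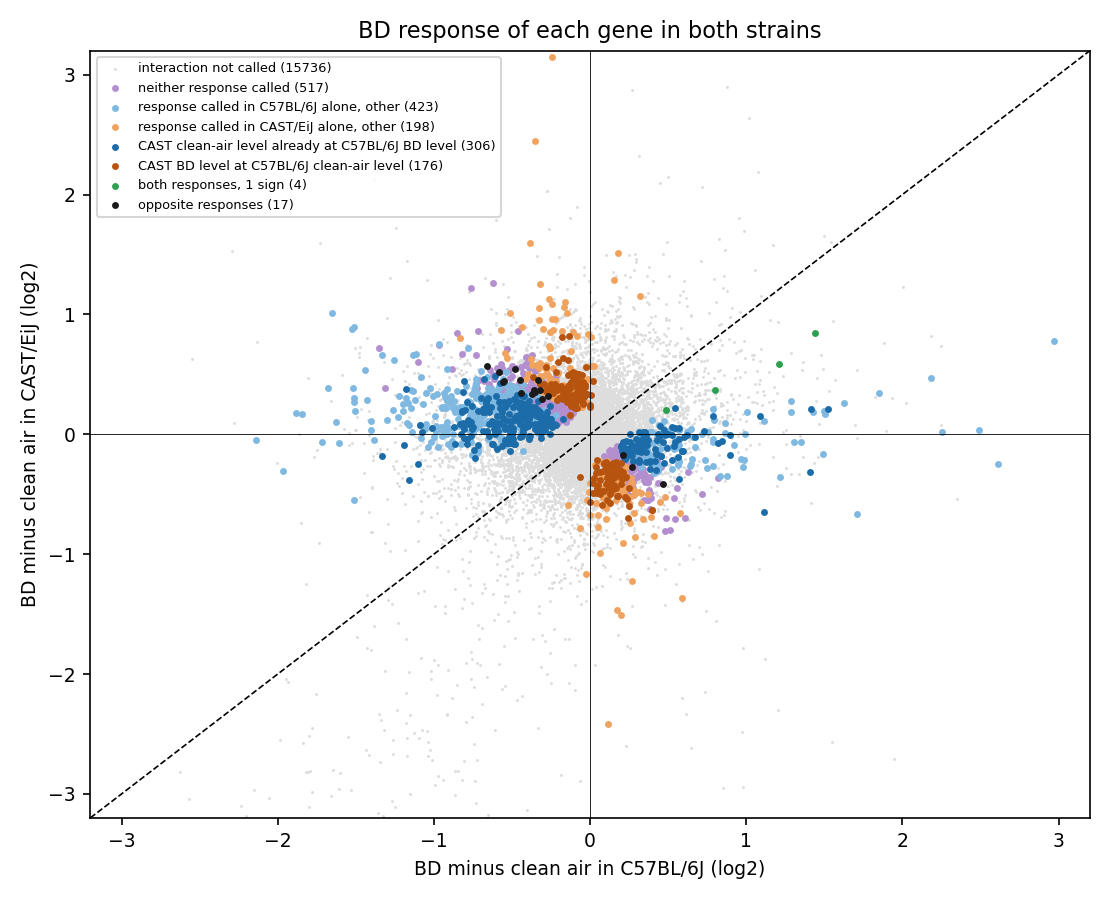
BD response (log2) in C57BL/6J (x axis) and in CAST/EiJ (y axis) of each gene, coloured by class, with the dashed line at equal responses; 11 genes, none of them called for the interaction, lie outside the axes. The blue genes lie along the horizontal axis, where C57BL/6J responded, and the orange genes along the vertical axis, where CAST/EiJ did.

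The 306 genes already at the level in clean-air CAST/EiJ had a median C57BL/6J response of 0.454 (log2, taken in its own direction), a CAST/EiJ response of -0.105 on the same footing and a clean-air strain difference of 0.572, so that the 1.5-fold margin was wider than the median response it was applied to. All 306 differed between strains in clean air by the rule, and in 256 of them the strain difference under BD was not called. In 202 the C57BL/6J level fell under BD, and in the others it rose. Both the C57BL/6J response and the clean-air strain difference subtract the same 5 clean-air C57BL/6J libraries, so a high or low draw there moves both together. In the 17 libraries 34 of the 306 were called and 24 fell into the same class.

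Ctgf, which encodes a matricellular growth factor of connective tissue, had 219, 220, 323, 285 and 393 CPM in the 5 CAST/EiJ libraries under BD, and a range of 259 to 389 CPM with a median of 322 CPM in clean-air CAST/EiJ. The C57BL/6J libraries had 229 to 283 CPM (median 264 CPM) under BD, against 110, 134, 130, 158 and 165 CPM in clean air. The clean-air C57BL/6J libraries lay below all others without overlap, and the 3 other groups overlapped one another. The interaction was -1.07 ± 0.19 (log2, SE; adjusted p = 0.00778), and -1.09 in 17 libraries (adjusted p = 0.0377). Trim59, which encodes a tripartite-motif protein, showed the same arrangement downwards, with 7.37 ± 0.563 CPM in CAST/EiJ under BD, 6.10 ± 1.58 CPM in clean-air CAST/EiJ, 6.75 ± 0.811 CPM in C57BL/6J under BD and 11.7 ± 1.49 CPM in clean-air C57BL/6J (SD, n = 5, 7, 6 and 5). Its interaction was 1.06 ± 0.21 (adjusted p = 0.0118), and 0.85 in 17 libraries (adjusted p = 0.0310). The leukotriene B4 receptor gene Ltb4r1 (1.17 ± 0.33) and Phtf1 (-0.44 ± 0.10) were likewise called in both fits. Rgcc, a regulator of the cell cycle, was called in the 23 libraries alone (-1.76 ± 0.34), and its level reached 142 CPM in CAST/EiJ under BD number 12 against 72.3 to 87.1 CPM in the 4 others of that group. Clean-air CAST/EiJ had 143 to 220 CPM of Rgcc in the libraries numbered over 100 but 61.0 to 99.2 CPM in numbers 1 and 2. The C57BL/6J libraries had 95.7 to 164 CPM of it under BD and 53.1 to 76.9 CPM in clean air. The tumour suppressor gene Trp53 was in this class too, at 14.4 CPM in CAST/EiJ under BD, 11.9 CPM in clean-air CAST/EiJ, 13.5 CPM in C57BL/6J under BD and 21.5 CPM in clean-air C57BL/6J (means). Its interaction of 0.94 ± 0.21 (adjusted p = 0.0147) was 0.91 in 17 libraries, where it was not called (adjusted p = 0.0786).

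**Figure D3:**
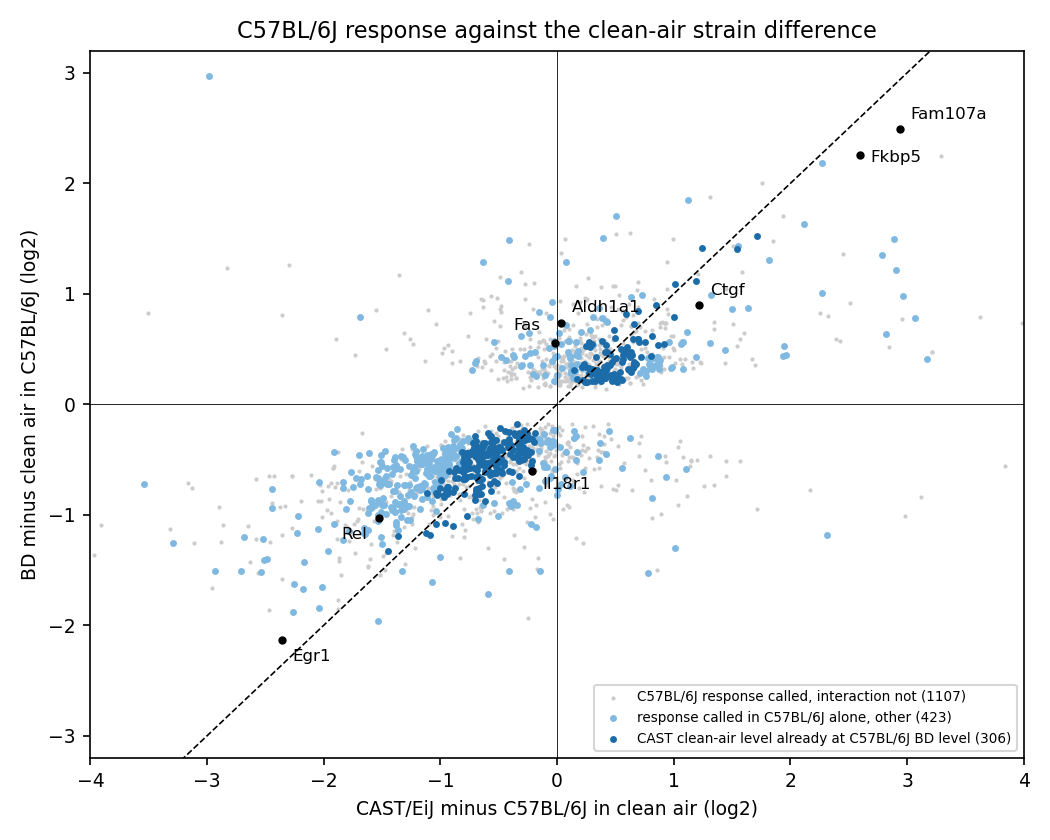
BD response of C57BL/6J (y axis, log2) against the clean-air difference CAST/EiJ minus C57BL/6J (x axis, log2) for the genes whose C57BL/6J response was called, without those of opposite, shared or no class; the dashed line marks genes whose clean-air CAST/EiJ level equals the C57BL/6J level under BD, and 9 genes lie outside the axes. Grey points are genes not called for the interaction, and the dark points hug the line by the rule; Fam107a and Egr1 lie close to it, and Aldh1a1 and Fas stand near 0 on the x axis, where both strains started equal.

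The 423 other genes with a response called in C57BL/6J alone started from several places. In 293 the clean-air CAST/EiJ level differed (called) on the side of the C57BL/6J response. It lay nearer to the BD level than to the clean-air level of C57BL/6J, but its interval passed the 1.5-fold margin. In 36 CAST/EiJ started on the far side by a called difference. Of the remainder, 73 had a clean-air strain difference with an interval inside the margin, taken as an equal start, and 21 could not be placed. Genes of the 293 or the 36 were not counted as equal starts even where their clean-air difference lay inside the margin. In both the 306 and the 293 the clean-air difference between the strains lay in the direction of the C57BL/6J response by the rules that define them. This sorting by starting level was added after the data were seen.

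Fam107a, a stress- and glucocorticoid-responsive gene, belonged to the 293. It had 75.3, 78.3, 64.4, 55.2 and 121 CPM in CAST/EiJ under BD and 45.0 to 108 CPM (median 80.5 CPM) in clean-air CAST/EiJ. The C57BL/6J libraries had 36.7 to 76.0 CPM (median 58.6 CPM) under BD, against 6.82, 7.35, 11.8, 13.2 and 10.4 CPM in clean air. Only the clean-air C57BL/6J libraries stood apart, with no overlap. The interaction was -2.46 ± 0.32 (adjusted p = 0.00149), -2.16 in 17 libraries (adjusted p = 0.0291), and called with the covariate too (adjusted p = 0.00983). Fkbp5, a co-chaperone of the glucocorticoid receptor and a standard read-out of its activity, had the same shape at 115 ± 64.2 CPM in CAST/EiJ under BD, 114 ± 34.8 CPM in clean-air CAST/EiJ, 89.4 ± 27.0 CPM in C57BL/6J under BD and 18.7 ± 3.01 CPM in clean-air C57BL/6J (SD, n = 5, 7, 6 and 5). Its interaction of -2.23 ± 0.42 (adjusted p = 0.0118) was -1.78 in 17 libraries, where it was not called (adjusted p = 0.112).

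Egr1, an immediate early transcription factor gene, ran the other way. It had 4.18, 12.8, 14.4, 7.80 and 7.50 CPM in CAST/EiJ under BD and 5.78 to 18.5 CPM (median 8.41 CPM) in clean-air CAST/EiJ. The C57BL/6J libraries had 9.07 to 13.97 CPM (median 11.3 CPM) under BD, against 36.2, 94.2, 53.1, 46.1 and 16.4 CPM in clean air. The 16.4 CPM of RNA_106 lay below the highest clean-air CAST/EiJ library, and the 4 low-numbered clean-air C57BL/6J libraries lay above all others. The interaction was 2.09 ± 0.51 (adjusted p = 0.0220), and 2.31 in 17 libraries (adjusted p = 0.0416). Rel, which encodes the NF-kappaB subunit c-Rel of lymphocytes, was called in all 3 fits (1.42 ± 0.21, adjusted p = 0.00264; 1.07 in 17 libraries), with 8.34 to 10.2 CPM in CAST/EiJ under BD, 4.05 to 10.2 CPM in clean-air CAST/EiJ, 7.86 to 11.7 CPM in C57BL/6J under BD and 17.9 to 26.2 CPM in clean-air C57BL/6J. The Ras regulator gene Rasal1 (1.78 ± 0.39) was called higher in both fits. Clca1, which encodes a secreted protein of mucous cells, was called lower in all 3 (-1.17 ± 0.21, adjusted p = 0.00778), at 5.26 CPM in CAST/EiJ under BD, 6.09 CPM in clean-air CAST/EiJ, 7.66 CPM in C57BL/6J under BD and 3.90 CPM in clean-air C57BL/6J (means).

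Genes that started equal in clean air by the sorting above and were called in both fits numbered 23 across the classes, 22 of them with an informative symbol. Of these 19 had the lower response in CAST/EiJ and 3 the higher. The 17-library fit that enters this choice itself called 121 genes higher and 199 lower. Without that condition, equal starts with a response called in C57BL/6J alone were 36 higher and 37 lower. Those in CAST/EiJ alone were 16 higher and 39 lower, and those in neither strain 18 higher and 37 lower. Of the 22, 9 had a response called in C57BL/6J alone, 10 in CAST/EiJ alone, 1 in opposite directions and 2 in neither strain, and 8 were called with the covariate as well. The fit that defines an equal start also contributes the clean-air levels to the interaction, so these counts describe and do not test.

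Aldh1a1, the cytosolic aldehyde dehydrogenase of retinoic acid synthesis, is abundant in club cells. It had 1161, 1318, 1058, 935 and 1441 CPM in CAST/EiJ under BD and 1124.5 to 1704 CPM (median 1299 CPM) in clean-air CAST/EiJ. The C57BL/6J libraries had 1765 to 2440 CPM (median 2330 CPM) under BD, against 1309, 1068, 1234, 1361 and 1721 CPM in clean air. Every C57BL/6J library under BD lay above all 17 others. The clean-air strain difference was 0.03 (log2), and the interaction was -0.95 ± 0.19 (adjusted p = 0.0117), -1.10 in 17 libraries (adjusted p = 0.0192) and called with the covariate (adjusted p = 0.0408). Fas, the death receptor gene that p53 induces, had 41.9, 38.9, 39.0, 37.9 and 37.4 CPM in CAST/EiJ under BD and 35.9 to 54.6 CPM (median 43.7 CPM) in clean-air CAST/EiJ. The C57BL/6J libraries had 59.0 to 77.3 CPM (median 66.4 CPM) under BD, against 44.1, 41.5, 45.5, 40.7 and 54.3 CPM in clean air. Its C57BL/6J libraries under BD again lay above all others, and the interaction was -0.76 ± 0.15 (adjusted p = 0.0107), and -0.53 in 17 libraries (adjusted p = 0.0442). Further genes raised in C57BL/6J alone from an equal start were Glt8d2, a glycosyltransferase gene (-0.80), the collagen lysyl hydroxylase gene Plod2 (-0.55), the exocyst gene Exoc4 (-0.36) and the syndecan gene Sdc2 (-0.30). Those lowered in C57BL/6J alone were Il18r1, a subunit of the interleukin-18 receptor (0.49), the nucleotide hydrolase gene Samhd1 (0.48) and the amino acid transporter gene Slc43a2 (0.63).

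The 10 genes that changed in CAST/EiJ alone from an equal start were all lower under BD there. Wfdc2, a secreted protein gene of airway epithelium, had 223 to 294 CPM in CAST/EiJ under BD, 291 to 398.5 CPM in clean-air CAST/EiJ, 435 to 564 CPM in C57BL/6J under BD and 356 to 508 CPM in clean-air C57BL/6J. The CAST/EiJ libraries under BD lay lowest and met clean-air CAST/EiJ only at their upper end. The interaction was -0.67 ± 0.14 (adjusted p = 0.0144), and -0.77 in 17 libraries (adjusted p = 0.0324). Drc1, a component of the motile cilium's dynein regulatory complex, had 10.7 to 15.1 CPM in CAST/EiJ under BD, 14.5 to 26.1 CPM in clean-air CAST/EiJ, 17.8 to 25.4 CPM in C57BL/6J under BD and 17.6 to 23.1 CPM in clean-air C57BL/6J. Clean-air CAST/EiJ numbers 1 and 2 had 21.4 to 26.1 CPM, and those over 100 had 14.5 to 18.2 CPM. The interaction of Drc1 was -0.63 in 23 libraries and -1.03 in 17, and was not called with the covariate (adjusted p = 0.0670). Tspan1 (-0.63), Prom1 (-0.55) and Slc44a4 (-0.64), which encode membrane proteins of epithelial cells, the muscle LIM protein gene Csrp2 (-0.68), Khdrbs3 (-0.51), the red cell enzyme gene Bpgm (-0.51) and Fam129a (-0.41, called in all 3 fits) were also among the 10.

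**Figure D4:**
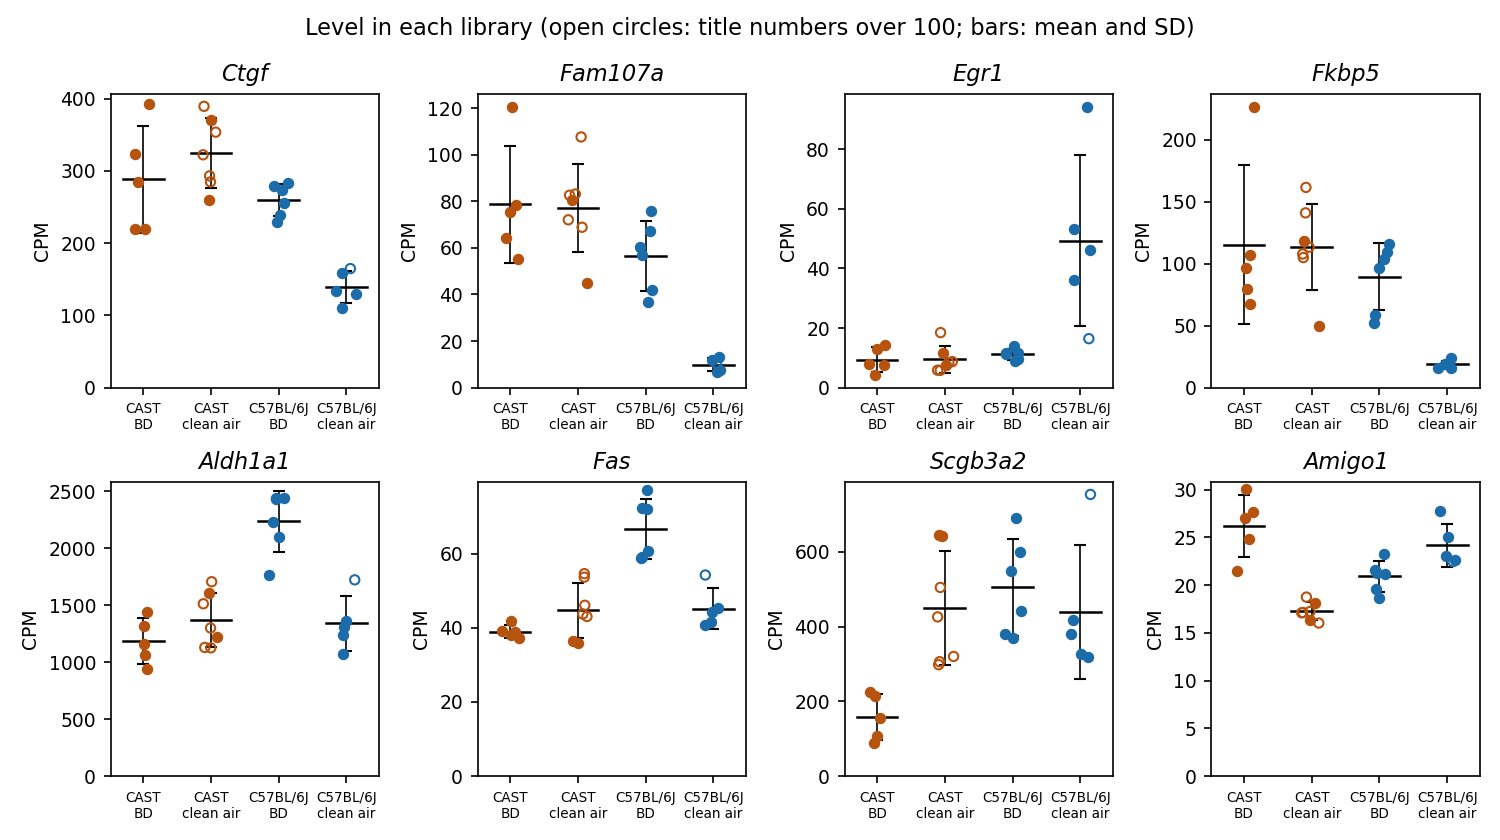
CPM of 8 genes (y axes) in each library of the 4 groups, with open circles for title numbers over 100 and bars for mean and SD. In the upper row the clean-air C57BL/6J libraries stand apart, except RNA_106 for Egr1; in the lower row C57BL/6J under BD stands apart for Aldh1a1 and Fas, CAST/EiJ under BD for Scgb3a2, and clean-air CAST/EiJ lies lowest for Amigo1, meeting C57BL/6J under BD at its upper end.

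Scgb3a2, which encodes a secretoglobin of club cells, fell in CAST/EiJ alone. It had 154, 87.7, 225, 107 and 214 CPM in CAST/EiJ under BD and 298 to 645 CPM (median 426 CPM) in clean-air CAST/EiJ. In C57BL/6J it had 369 to 690 CPM (median 495 CPM) under BD, against 418, 326, 318, 379 and 753 CPM in clean air. The CAST/EiJ libraries under BD lay below all others, while within clean-air CAST/EiJ numbers 1 and 2 had 643 and 645 CPM and the 5 numbered over 100 had 298 to 505 CPM. The interaction was -1.71 ± 0.40 (adjusted p = 0.0200), and -2.52 in 17 libraries (adjusted p = 0.0150). Sult1d1, a sulfotransferase gene, was called lower in both fits (-2.53 ± 0.73) but was low throughout CAST/EiJ, at 0.342 CPM under BD and 1.79 CPM in clean air against 37.7 CPM under BD and 34.8 CPM in clean air in C57BL/6J (means). The tight-junction gene Cldn2 (-1.49 ± 0.47) and, upwards, the taste receptor gene Tas2r143 (1.98 ± 0.50) and the long noncoding RNA genes Fendrr (1.18 ± 0.30) and Snhg11 (1.13 ± 0.25) were also called in both fits.

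Amigo1, a cell adhesion gene, was among the 176 genes whose CAST/EiJ level under BD lay within 1.5-fold of the clean-air C57BL/6J level. It had 27.6, 27.0, 30.1, 21.5 and 24.8 CPM in CAST/EiJ under BD and 16.04 to 18.8 CPM (median 17.1 CPM) in clean-air CAST/EiJ. In C57BL/6J it had 18.6 to 23.3 CPM (median 21.2 CPM) under BD, against 25.0, 27.7, 23.1, 22.6 and 22.5 CPM in clean air. Clean-air CAST/EiJ lay lowest and met C57BL/6J under BD only at its upper end, and CAST/EiJ under BD overlapped clean-air C57BL/6J. The interaction was 0.81 ± 0.11 (adjusted p = 0.00149), 0.83 in 17 libraries (adjusted p = 0.0219) and called with the covariate (adjusted p = 0.00983). Bcl2l11, the pro-apoptotic BIM gene, was called in all 3 fits as well (0.64 ± 0.12). The calpain gene Capn15 (0.66 ± 0.15) was called higher in both fits, and the fibroblast gene Pi16 (-0.95 ± 0.26), the lipid transfer gene Scp2 (-0.53 ± 0.11) and the endoplasmic reticulum isomerase gene Pdia6 (-0.50 ± 0.13) lower. Within the margin a gap could remain. Pdia6 went from 284 to 218 CPM in CAST/EiJ, against 170 CPM in clean-air C57BL/6J (means). Bcl2l11 went from 27.7 to 37.0 CPM against 48.2 CPM. Pi16 went from 40.6 to 24.8 CPM against 24.4 CPM.

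The 17 genes with opposite responses, 12 of them called in both fits, rose in CAST/EiJ and fell in C57BL/6J in 14 cases. Most did not start equal, as the strains differed in clean air (called) in 16 of the 17. In 12 the strain difference was called in clean air and not under BD. In 7 the clean-air CAST/EiJ level was already at the C57BL/6J level under BD by the 1.5-fold rule. Only 1 of the 17 counted as an equal start. Camta2, a calmodulin-binding transcription activator gene, had 23.6 ± 3.55 CPM in CAST/EiJ under BD and 16.4 ± 1.21 CPM in clean-air CAST/EiJ, and 24.9 ± 3.67 CPM under BD and 37.5 ± 11.4 CPM in clean air in C57BL/6J (SD, n = 5, 7, 6 and 5). Its interaction was 1.10 ± 0.20 (adjusted p = 0.00782), and 1.11 in 17 libraries (adjusted p = 0.0349). Pced1b (1.23 ± 0.21) and Atxn2l (1.03 ± 0.22) behaved likewise. Srpx, a sushi-repeat gene, went the other way from an equal start (-0.88 ± 0.17, adjusted p = 0.0118), with 5.24 to 9.86 CPM in CAST/EiJ under BD, 8.99 to 10.5 CPM in clean-air CAST/EiJ, 14.02 to 17.9 CPM in C57BL/6J under BD and 8.91 to 13.1 CPM in clean-air C57BL/6J. The blood group gene Art4 (-0.54 ± 0.11) and the replication protein gene Rpa1 (-0.39 ± 0.07) were called in the 23 libraries but not in the 17 (adjusted p = 0.109 and 0.0640).

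The 4 genes that rose in both strains, all by less in CAST/EiJ, were Tbc1d22a and 3 genes of the NRF2 group, Gsta3 (a glutathione S-transferase), Nqo1 (a quinone reductase) and Ugt1a6a (a glucuronosyltransferase). None of the 4 was called in the 17 libraries. Gsta3 had 470 ± 50.1 CPM in CAST/EiJ under BD and 313 ± 64.0 CPM in clean-air CAST/EiJ, and 410 ± 61.3 CPM under BD and 177 ± 17.1 CPM in clean air in C57BL/6J (SD, n = 5, 7, 6 and 5); its interaction was -0.63 ± 0.18 (adjusted p = 0.0332), and -0.73 in 17 libraries (adjusted p = 0.0562). Nqo1 had 36.9 CPM in CAST/EiJ under BD and 20.5 CPM in clean-air CAST/EiJ, and 26.3 CPM under BD and 9.69 CPM in clean air in C57BL/6J (means), with an interaction of -0.59 ± 0.17 (adjusted p = 0.0368; -0.50 and 0.195 in 17 libraries). The calls of Gsta3 and Nqo1 held in 14 and 12 of the 23 fits that each left out 1 library. Over the 57 glutathione and NRF2 genes tested, 21 rose and none fell in CAST/EiJ, 36 rose and none fell in C57BL/6J, and 1 was called higher and 9 lower for the interaction, none of them in both fits. The shares called over all genes tested were 5.62% higher and 3.82% lower. The median interaction of the list was -0.17 (log2) in 23 libraries and -0.07 in 17, beside -0.02 over all genes tested in either fit. In clean air 31 of the 57 were higher and 6 lower in CAST/EiJ.

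NRF2 acts through the antioxidant response element, whose core TGACNNNGC was looked for on both strands of the 250 bases before each start site in RefSeq (GRCm38.p6, a later build than the mm9 of the counts). Of 48 NRF2 list members with a promoter entry 11 held it (22.9%), beside 3112 of all 27025 genes with one (11.5%). Among the 10 members called for the interaction 4 held it, and the 3 with the largest interaction are shown, the match in capitals; a match is a description of these letters only.
Ggt1, chr10:75568412-75568661, plus strand: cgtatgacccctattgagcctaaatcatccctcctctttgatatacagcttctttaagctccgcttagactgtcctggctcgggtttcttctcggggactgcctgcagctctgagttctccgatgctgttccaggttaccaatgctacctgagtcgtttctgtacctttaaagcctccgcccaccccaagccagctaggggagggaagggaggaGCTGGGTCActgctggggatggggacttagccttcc
Gsta3, chr1:21240335-21240584, plus strand: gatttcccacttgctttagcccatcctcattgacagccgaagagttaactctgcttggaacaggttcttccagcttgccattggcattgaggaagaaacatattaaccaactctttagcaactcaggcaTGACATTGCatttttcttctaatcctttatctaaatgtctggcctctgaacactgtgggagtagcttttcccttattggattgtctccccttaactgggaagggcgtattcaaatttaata
Abcc4, chr14:118706220-118706469, minus strand: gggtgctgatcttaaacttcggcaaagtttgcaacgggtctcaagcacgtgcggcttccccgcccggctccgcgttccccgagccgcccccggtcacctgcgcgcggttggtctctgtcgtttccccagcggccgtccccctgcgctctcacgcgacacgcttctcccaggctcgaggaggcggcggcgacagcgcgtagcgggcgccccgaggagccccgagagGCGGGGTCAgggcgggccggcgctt
Ggt1, which encodes the gamma-glutamyltransferase that opens glutathione breakdown, and Gsta3 had the lower response in CAST/EiJ (Ggt1 -0.82, response called in C57BL/6J alone). Abcc4, an efflux transporter gene, had the higher (0.58 ± 0.16, adjusted p = 0.0321). None of the 3 was called in the 17 libraries.

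Among enzymes of BD and its epoxides, Cyp2e1 was not called, at -1.25 ± 0.72 (adjusted p = 0.263), with 52.5 CPM in CAST/EiJ under BD, 84.7 CPM in clean-air CAST/EiJ, 64.8 CPM in C57BL/6J under BD and 43.5 CPM in clean-air C57BL/6J (means), and with 113 CPM in CAST/EiJ under BD number 12 against 30.7 to 43.8 CPM in the 4 others. Within clean-air CAST/EiJ it had 136 to 209 CPM in numbers 1 and 2. The libraries of that group numbered over 100 had 19.2 to 74.5 CPM (mean 49.5 CPM). Ephx1, the microsomal epoxide hydrolase gene, had 235 CPM in CAST/EiJ under BD and 231 CPM in clean air, and 284 CPM under BD and 204 CPM in clean air in C57BL/6J. Its interaction of -0.45 ± 0.14 passed narrowly (adjusted p = 0.0495) and was -0.20 in 17 libraries (adjusted p = 0.550). Gstt1, the theta-class transferase gene, behaved alike (-0.45 ± 0.14, adjusted p = 0.0480; -0.26 and 0.286 in 17 libraries). Both calls held in 6 of the 23 fits that each left out 1 library. The mu-class gene Gstm1 was not called (0.28 ± 0.10, adjusted p = 0.0645), nor was the cell cycle inhibitor gene Cdkn1a, a p53 target (-0.78 ± 0.35, adjusted p = 0.148). Cyp1a1, a target of the aryl hydrocarbon receptor, had 1.31 to 3.52 CPM in CAST/EiJ under BD, 0.642 to 1.78 CPM in clean-air CAST/EiJ, 29.6 to 167 CPM in C57BL/6J under BD and 8.72 to 10.9 CPM in clean-air C57BL/6J, with an interaction of -2.19 ± 0.61 (adjusted p = 0.0358) that was not called in 17 libraries (-2.10, adjusted p = 0.358).

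Of 47 BD-activating and other phase I enzyme genes, 1 was called higher and 12 lower for the interaction, 4 of the lower ones in both fits (among them Aldh1a1, the alcohol dehydrogenase gene Adh1 and the aldehyde oxidase gene Aox3). The list's median interaction was -0.45 in 23 libraries and -0.48 in 17. For this and the next lists, the shares over all genes tested were 5.62% higher and 3.82% lower, or 0.604% and 0.391% in both fits. In CAST/EiJ 2 members rose and 3 fell under BD, and in C57BL/6J 18 rose and 1 fell. Of 27 club and secretory cell genes 1 was called higher (Chia1) and 8 lower, 4 of them in both fits, with a median of -0.63 in 23 libraries and -0.67 in 17. Aldh1a1, Aldh1a7, Cyp2f2 and Gsta3 of the club cell list are also in the phase I or the NRF2 list. The summed club cell list stood at 9872 to 14103 CPM in CAST/EiJ under BD, 15309 to 21015 CPM in clean-air CAST/EiJ, 15257 to 20289 CPM in C57BL/6J under BD and 15495 to 20508 CPM in clean-air C57BL/6J, so that the CAST/EiJ libraries under BD lay below all others. Scgb1a1, the defining club cell marker, had 3042 to 6220 CPM in CAST/EiJ under BD, 6023 to 8499 CPM in clean-air CAST/EiJ, 4971 to 6796 CPM in C57BL/6J under BD and 6586 to 8267 CPM in clean-air C57BL/6J. Of 34 motile cilium genes none was called higher and 4 lower, 2 of them in both fits (Drc1 and Spag6), and the median was -0.33 in 23 libraries and -0.67 in 17. Their sum was 738 to 1083 CPM in CAST/EiJ under BD and 907 to 1513 CPM in clean-air CAST/EiJ (1278 to 1513 CPM in numbers 1 and 2, 907 to 1193 CPM over 100), and 1184 to 1779 CPM under BD and 1320 to 1651 CPM in clean air in C57BL/6J. Whether the airway share of the dissected tissue took part in these differences was not tested.

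Of 38 glucocorticoid-responsive genes 1 was called higher (Ncoa3) and 16 lower, with a median of -0.67 in 23 libraries and -0.43 in 17; of the 17 calls 5 were already at the level, 7 had a response in C57BL/6J alone and Fam107a was the 1 called in both fits. In CAST/EiJ 3 rose and 1 fell under BD, in C57BL/6J 17 rose and 2 fell, and in clean air 25 were higher and 5 lower in CAST/EiJ. Over all genes tested 5.62% were called higher and 3.82% lower for the interaction. Of 35 immediate early genes 7 were called higher and 2 lower (Ctgf and the phosphatase gene Dusp6), with a median of 0.44 in 23 libraries and 0.60 in 17. Nr4a1, an orphan nuclear receptor gene, followed Egr1 at 2.02 ± 0.47 (adjusted p = 0.0180) with means of 21.5 CPM in CAST/EiJ under BD, 19.0 CPM in clean-air CAST/EiJ, 21.8 CPM in C57BL/6J under BD and 78.5 CPM in clean-air C57BL/6J, and was not called in 17 libraries (1.94, adjusted p = 0.0998). In C57BL/6J 1 immediate early gene rose and 14 fell under BD. Handling, time of day and order of dissection are not in the labels, and their part in these genes was not tested.

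Of 37 B and plasma cell genes 10 were called higher and 1 lower for the interaction, with a median of 1.15 in 23 libraries and 0.91 in 17, and 2 were called in both fits (the transcription factor gene Bach2 and the receptor gene Tnfrsf13b). The share over all genes tested was 5.62% higher and 3.82% lower. In CAST/EiJ 3 of the 37 fell under BD and none rose, in C57BL/6J 28 fell and none rose, and in clean air 33 were lower and 2 higher in CAST/EiJ. Pou2f2, a B cell transcription factor gene (2.06 ± 0.49, adjusted p = 0.0180), and the IgE receptor gene Fcer2a (1.81 ± 0.50, adjusted p = 0.0321) were called in the 23 libraries alone. The summed list was 822 to 1014 CPM in CAST/EiJ under BD, 903 to 1121 CPM in clean-air CAST/EiJ, 1167 to 1713 CPM in C57BL/6J under BD and 1880 to 2234 CPM in clean-air C57BL/6J. So the sums under BD and in clean air overlapped in CAST/EiJ and did not in C57BL/6J, and the C57BL/6J sums under BD still lay above every CAST/EiJ library.

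Of 49 T and NK cell genes 10 were called higher and none lower (median 0.61 in 23 libraries and 0.57 in 17), none of them in both fits. Under BD 3 fell and 1 rose in CAST/EiJ, against 20 that fell and none that rose in C57BL/6J. The receptor chain gene Cd3e was one of the 10 (1.87 ± 0.50, adjusted p = 0.0265; 1.63 and 0.156 in 17 libraries). Of 36 dendritic cell and MHC class II genes 7 were called higher and 1 lower (median 0.55 and 0.59). None of the 7 was called in the 17 libraries, and the lower one, the interferon-induced gene Bst2, was called in both fits. The 7 included Ccl22 (2.67 ± 0.64, adjusted p = 0.0190) and Ccl17 (1.39 ± 0.38, adjusted p = 0.0311), chemokine genes of mature dendritic cells, and Ccr7 (1.37 ± 0.36, adjusted p = 0.0268), which guides such cells to lymph nodes. In the 17 libraries these 3 stood at 2.93, 1.61 and 1.44 (adjusted p = 0.123, 0.112 and 0.112). Ccl17 had 8.47 CPM in CAST/EiJ under BD, 3.88 CPM in clean-air CAST/EiJ, 2.64 CPM in C57BL/6J under BD and 3.14 CPM in clean-air C57BL/6J (means). Of 33 NF-kappaB and Toll-like receptor genes 9 were called higher and none lower (median 0.36 and 0.32), with Rel called in both fits; Tlr9, a nucleic acid sensor of B and dendritic cells, had an interaction of 1.44 ± 0.44 (adjusted p = 0.0417; 1.77 and 0.0676 in 17 libraries). Of 40 cytokine and chemokine genes 6 were called higher and none lower, none of them in the 17 libraries. Beside the lists of this paragraph, 5.62% of all genes tested were called higher and 3.82% lower. The part of cell number in the NF-kappaB and chemokine values was not tested.

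Of 59 chromatin modifier genes 28 were called higher and none lower, 5 of them in both fits (Kmt2b, Arid1a, Chd7, Tet3 and Brd2), with a median of 0.32 in 23 libraries and 0.17 in 17. Their sum was 7046 to 7638 CPM in CAST/EiJ under BD and 5383 to 7144 CPM in clean-air CAST/EiJ, where numbers 1 and 2 had 6872 to 7144 CPM and those over 100 had 5383 to 6393 CPM. In C57BL/6J it was 6990 to 8242 CPM under BD and 7508 to 9690 CPM in clean air, the lowest of them in RNA_106. Kmt2d, a histone H3 lysine methyltransferase gene (1.22 ± 0.32, adjusted p = 0.0258), and Setd1b (1.15 ± 0.33, adjusted p = 0.0337) were among the 28, and neither was called in the 17 libraries (adjusted p = 0.0937 and 0.108). For this and the next lists, the shares over all genes tested were 5.62% higher and 3.82% lower. Of 19 erythroid genes 1 was called higher (Gata1) and 9 lower, of which Bpgm alone was called in both fits, with a median of -0.86 in 23 libraries and -0.59 in 17; the globin entries Hbb-b1, Hbb-b2, Hbb-bs and Hbb-bt are near copies whose reads the counting may have shared. Of 72 oxidative phosphorylation subunit genes none was called higher and 10 lower, 9 of them with neither response called by itself (median -0.39 and -0.33), and none of the 10 was called in the 17 libraries. Of 78 cytosolic ribosomal protein genes 1 was called lower (Rpl7a, not called in the 17), and the list's median was -0.32 in 23 libraries and -0.06 in 17; its sum was 14421 to 16995 CPM in the clean-air CAST/EiJ libraries numbered over 100 and 11141 to 12136 CPM in numbers 1 and 2.

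Of 37 endoplasmic reticulum stress genes 1 was called higher (Mthfd2) and 7 lower, of which Hspa5 and Pdia6 were called in both fits. Of 29 smooth muscle and pericyte genes 2 were called higher and 3 lower (median -0.23 in 23 libraries and -0.59 in 17). Notch3 and Myh11 were called in both fits, and the myosin heavy chain gene Myh11 in all 3 (-0.79 ± 0.22, adjusted p = 0.0333). Its call held in 16 of the 23 fits that each left out 1 library. Myh11 had 396 to 682 CPM in CAST/EiJ under BD. In clean-air CAST/EiJ it had 458 to 698 CPM over 100 and 833 to 1075 CPM in numbers 1 and 2. In C57BL/6J it had 358 to 461 CPM under BD and 311 to 360 CPM in clean air. Fibroblast and matrix genes gave 3 higher and 5 lower of 39, with Col6a1, Mfap5 and Ctgf called in both fits. Neuroendocrine markers gave none higher and 3 lower of 15 (Calca, -1.57 ± 0.34, was one), and cell cycle genes none higher and 3 lower of 40, none of these 6 in the 17 libraries. Of 41 p53 targets 2 were called higher and 3 lower, with Fas the 1 called in both fits, and of 56 DNA repair genes none higher and 1 lower (Ercc1, not called in the 17). Across all genes tested 5.62% were called higher and 3.82% lower, 9.44% in all. The cell cycle (3 of 40) and p53 (5 of 41) counts lay near that share. Under BD 18 cell cycle genes rose in C57BL/6J and none in CAST/EiJ, and none fell (median interaction -0.24 in 23 libraries, -0.34 in 17). Of the p53 targets 15 rose and 4 fell in C57BL/6J, and 3 rose and 1 fell in CAST/EiJ (median -0.14 and -0.04). Over all genes tested 4.2% rose in C57BL/6J and 3.86% in CAST/EiJ. Such response counts do not test a difference between the strains. No circadian clock gene of 24 and no basal or squamous epithelial gene of 24 was called in the 23 libraries. The squamous keratins Krt13 and Krt4 spanned 0.284 to 898 and 0.397 to 1190 CPM in CAST/EiJ under BD, 0.424 to 790 and 2.47 to 1133 CPM in clean-air CAST/EiJ, and 0.495 to 477 and 0.495 to 598 CPM in C57BL/6J under BD. They reached 745 and 765 CPM in the clean-air C57BL/6J library RNA_106 and at most 0.305 and 0.863 CPM in numbers 3 to 6 of that group. The median of their list, 0.61 in 23 libraries, was -0.51 in 17.

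**Figure D5:**
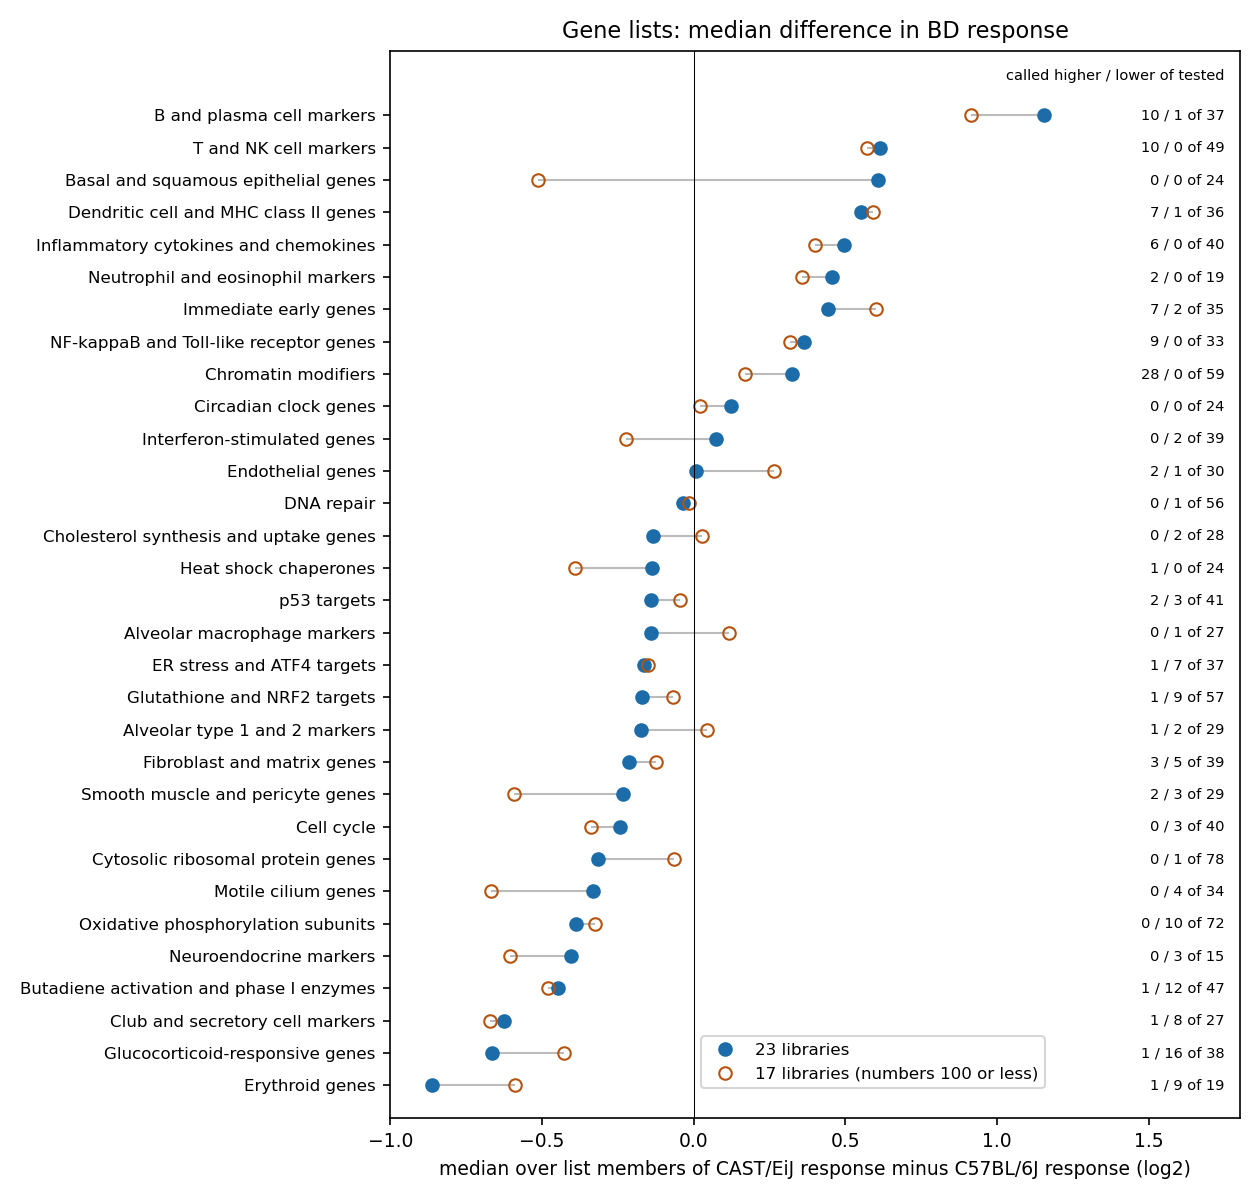
Median interaction (x axis, log2) of the members of 31 gene lists (rows) in 23 libraries (filled) and in the 17 libraries numbered 100 or less (open), with the numbers called higher and lower in 23 libraries at the right. Over all genes tested 5.62% were called higher and 3.82% lower. B cell, T cell and NF-kappaB lists lie to the right in both fits, glucocorticoid, club cell and erythroid lists to the left, and the basal and squamous, interferon, cholesterol, alveolar macrophage and alveolar type 1 and 2 lists change sides.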

How the data were processed

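Whole-lung polyA RNA was sequenced, and the authors deposited 1 table of read counts per gene, which are raw counts; reads were aligned with GSNAP to mm9, per the submitters' processing notes, and versions and the counting tool are not given in the sources used here. Of 23893 entries 23872 were complete, and 285 sets of entries with identical values were left in. The members and gene lists were chosen with earlier results of these data known. Counts were fitted with edgeR 4.0.16 (robust quasi-likelihood, filterByExpr, TMM; limma 3.58.1, R 4.3.3) with 1 mean per strain and exposure. Adjusted p-values are Benjamini-Hochberg values over all genes tested, and CPM are relative to the scaled library size. Levels were taken as equal where the 95% interval of a log2 difference lay inside 1.5-fold. Equal starts left out genes already placed by a called clean-air difference, on the far side or nearer to the level compared. No library pair differed by as little as counting noise (smallest chi-square per degree of freedom 5.02 over 276 pairs). P-values measure the spread between libraries, which may be partly technical.

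Named genes were the 3 with the largest interaction per class and sign among those called in the 23- and 17-library fits with at least 1 CPM in a group, filled from the 23-library fit where fewer were left. To these were added 7 fixed genes (Cyp2e1, Ephx1, Gstt1, Gstm1, Cdkn1a, Cyp1a1, Fkbp5) and up to 2 called members per direction of each list. Genes of equal start, other list members called in both fits, and markers were named after their values were seen. On simulated counts for the interaction (17377 genes, 50 changed per fold), the 23-library fit recovered 34% of genes changed 1.5-fold and 68% of those changed 2-fold, and the 17-library fit 12% and 64%. Alternatives were other scaling, no filter, DESeq2 1.42.0, limma-voom, the number series as covariate, other margins, and each library left out. Results of some genes are not reported here.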

Additional observations from a re-analysis of the deposited data

Results flagged for a closer look

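The interaction is itself a test of a difference between the strains' responses, and it was called for 1641 genes, for 173 with 1 sign in the 23- and 17-library fits and for 50 in all 3 fits. Of the genes named by the rule and reported here, 12 were called in all 3. Lower in CAST/EiJ were Fam107a (-2.46), Clca1 (-1.17), Ctgf (-1.07), Aldh1a1 (-0.95), Srpx (-0.88), Myh11 (-0.79) and Fas (-0.76). Higher were Rel (1.42), Pced1b (1.23), Camta2 (1.10), Amigo1 (0.81) and Bcl2l11 (0.64), all as log2 interaction.

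In 20 of 352 groups of libraries, over the named genes reported, 1 library stood far from the rest of its group; chance gives about 1 in 20, or 17.6. In CAST/EiJ under BD, number 12 gave 5 of these: 142 CPM of Rgcc, 7.03 CPM of Clca1, 113 CPM of Cyp2e1, 227 CPM of Fkbp5 and 164 CPM of Ncoa3, all the highest of their group. Number 10 gave 83.5 CPM of Snhg11, 127 CPM of Etv5 and 219.8 CPM of Kmt2d, number 9 gave 58.8 CPM of Phtf1, the lowest, and number 7 gave 39.2 CPM of Spag6. In clean-air CAST/EiJ, number 1 gave 31.9 CPM of Bcl2l11, 36.7 CPM of Snhg11 and 97.0 CPM of Ahr, RNA_105 gave 0.547 CPM of Pou2f2, the lowest, and RNA_103 gave 124 CPM of Cyr61. In C57BL/6J under BD, number 17 gave 1.44 CPM of Cldn2 and 42.4 CPM of Ndufa2. In clean-air C57BL/6J, RNA_106 gave 753 CPM of Scgb3a2 and 23.8 CPM of Snhg11, the lowest, and number 5 gave 1.44 CPM of Gata1.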

How the results depend on the processing

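No paired analysis was possible because no 2 groups share title numbers. With DESeq2's scaling in edgeR, and with 1 entry kept per identical set, every count of the report's main comparisons stayed within 1.5 times. Without title numbers over 100, 320 genes were called (121 higher, 199 lower), 48 already at the level, 107 in C57BL/6J alone, 27 reaching the C57BL/6J level and 113 in CAST/EiJ alone, with 627 CAST/EiJ and 3016 C57BL/6J responses. With the series as covariate these were 84 (43, 41), 26, 38, 3, 13, 275 and 3368. Without a filter 1041 were called, 378 lower, with 93 reaching the level and 114 in CAST/EiJ alone. DESeq2 called 2507 (1154 lower; 399 reaching the level, 360 in CAST/EiJ alone; 2261 CAST/EiJ responses; 656 in both fits), and limma-voom called 433 lower and 35 in both fits. With number 8 kept, 2 were called in both fits, 436 reached the level, 312 were in CAST/EiJ alone and 2390 CAST/EiJ responses were called; Sult1d1 (1.53) and Cyp1a1 (1.53) reversed. A 1.2-fold margin gave 70, 659, 36 and 338 genes in the 4 single-strain classes, and a 2-fold margin 503, 226, 260 and 114. Leaving out 1 library gave 372 to 3392 calls (245 to 1779 higher, 127 to 1613 lower), 2 to 429 in both fits, 71 to 574 already at the level, 115 to 752 in C57BL/6J alone, 27 to 729 reaching the level, 49 to 596 in CAST/EiJ alone, 354 to 3007 CAST/EiJ and 977 to 2309 C57BL/6J responses. The count moved over 1.5 times without CAST/EiJ under BD number 10 (595), clean-air CAST/EiJ 1 (3234), RNA_104 (800) and RNA_105 (906), C57BL/6J under BD 15 (930), 16 (825) and 17 (603), and clean-air C57BL/6J 3 (852), 4 (372), 5 (480) and RNA_106 (3392); the cause was not tested. Of 88 called named genes, 34 were called in all 23 such fits, among them Fam107a, Amigo1, Aldh1a1, Fas, Rel and Ctgf.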
